A study of Mus musculus with 48 samples.

Results

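Slc12a1, Slc12a3, Wnk1, Wnk4, Stk39, Oxsr1, Klhl3 and Cul3 encode cation-chloride cotransporters of the distal nephron together with the kinases and ubiquitin ligase parts that act on them. These 8 genes were chosen by name, and all 8 were found among the 12423 genes listed in both the RNA-seq and the RPF-seq data. All 8 were also among the 11863 genes with a median of at least 0.5 RPKM (reads per kilobase of coding sequence, scaled to the size of the library) in both assays, over which tests were run. Kidneys came from male C57BL/6JRj mice, 11 to 12 weeks old, held in 12 h of light and 12 h of darkness with free access to food. Time is given as Zeitgeber time (ZT), with lights on at ZT0 and off at ZT12. Kidneys were collected every 2 h from ZT0 to ZT22, and each of the 12 timepoints had 2 replicate pools, each made from the lysates of 2 mice. Each of the 24 pools gave 1 RNA-seq library of total RNA and 1 RPF-seq library of ribosome-protected fragments, and the ratio of RPF to RNA within a pool was taken as translation efficiency (TE). No group carried a mutation or treatment, so all comparisons were between times of day, between assays or between genes.

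The Slc12a1 product, NKCC2, takes up sodium, potassium and chloride in the thick ascending limb and is the target of loop diuretics. The Slc12a3 product, NCC, takes up sodium and chloride in the distal convoluted tubule and is the target of thiazides. WNK kinases sense intracellular chloride and phosphorylate SPAK, encoded by Stk39, and OSR1, encoded by Oxsr1, which in turn phosphorylate and activate both cotransporters. KLHL3 is an adaptor that brings WNK kinases to the cullin-3 ubiquitin ligase, encoded by Cul3, so that they are degraded. Inherited defects of some of these genes cause Bartter and Gitelman syndromes and familial hyperkalaemic hypertension.

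In mouse genome build GRCm38 the genes lie on 7 chromosomes. Slc12a1 (chromosome 2, 125152505 to 125230002, plus strand) and Stk39 (chromosome 2, 68210445 to 68472268, minus strand) share a chromosome. Slc12a3 spans 94329201 to 94366214 on the plus strand of chromosome 8. Wnk1 spans 119923969 to 120038672 on the minus strand of chromosome 6, and Wnk4 spans 101260567 to 101277409 on the plus strand of chromosome 11. Oxsr1 (119238432 to 119322427, chromosome 9), Klhl3 (58000228 to 58113592, chromosome 13) and Cul3 (80264923 to 80340480, chromosome 1) are on minus strands. Of the 8 genes, Oxsr1 overlapped another protein-coding gene of the annotation, Slc22a14, on the same strand. Each gene has 1 value for all its counted coding exons, so forms of 1 gene cannot be told apart. For Wnk1 this matters because the kidney makes a shorter form that lacks most of the kinase domain beside the full-length kinase.

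For Slc12a1 the deposited values showed which exons had been counted together. The low values of each library are whole multiples of what 1 read is worth, and the shortest coding length that turned all 48 Slc12a1 values into whole reads was 3462 nt. The longest single coding sequence annotated is 3270 nt, and it holds 1 of 3 mutually exclusive exons of 96 nt. Adding the other 2 exons (192 nt) gives 3462 nt. The 3 exons encode alternative forms of a membrane-spanning segment that differ in ion affinity and in their place along the thick ascending limb. They are printed because the Slc12a1 values below are sums over all of them. They lie at chr2:125165495-125165590, chr2:125166123-125166218 and chr2:125166673-125166768 on the plus strand, and capitals mark the 45 of 96 positions at which the exons differ from each other:
Slc12a1 exon 1: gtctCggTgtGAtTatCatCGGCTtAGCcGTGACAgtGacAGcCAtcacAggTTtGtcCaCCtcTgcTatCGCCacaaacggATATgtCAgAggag
Slc12a1 exon 2: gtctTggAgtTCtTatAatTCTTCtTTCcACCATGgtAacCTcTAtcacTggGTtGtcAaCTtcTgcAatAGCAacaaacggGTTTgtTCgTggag
Slc12a1 exon 3: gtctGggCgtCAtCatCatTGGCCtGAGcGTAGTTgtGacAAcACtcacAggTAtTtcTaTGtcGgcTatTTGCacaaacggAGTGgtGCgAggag
Identity was 65.6% between exons 1 and 2, 68.8% between exons 1 and 3, and 58.3% between exons 2 and 3. For Wnk1, the coding length that turned all values into whole reads was 7147 nt. Its longest annotated coding sequence is 7905 nt, so the counted exons did not cover all of it. Which part of Wnk1 was left out is not known from these values.

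Timepoint labels were checked with the clock genes Per1, Dbp, Nr1d1 and Arntl. All 4 followed a 24-h curve in both assays, with Dbp 42.1-fold in RNA and peaking at ZT10.5, and Nr1d1 21.7-fold in RNA and peaking at ZT7.5. All 6 markers of the thick ascending limb and all 6 of the distal convoluted tubule were listed in both assays. Of 4 adrenal cortex markers 0 were listed, and adipocyte markers summed to at most 18.6 RPKM in RPF and 9.03 RPKM in RNA. These adipocyte sums varied with time of day. Their fitted 24-h curves were 5.27-fold in RPF (R2 = 0.533, peak at ZT5.3) and 3.66-fold in RNA (R2 = 0.467, peak at ZT4.7). The part of adipose tissue in the values of the 8 genes was not tested. Read depth relative to the median library of the assay ran from 0.598 to 2.04 in RNA-seq and from 0.701 to 1.58 in RPF-seq, and the fewest reads behind any value of the 8 genes were 378, for Klhl3 in RNA-seq.

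The cotransporters were far more abundant than the genes that regulate them. Slc12a1 RNA ran from 444 RPKM in the lowest pool through a median of 493 to 647 in the highest, with a mean of 509 ± 48.1 (SD, n = 24 pools). Its RPF values ran from 451 through 517 to 624 RPKM, with a mean of 521 ± 48.3. The mean RNA level stood above those of 98.2% of tested genes. Slc12a3 RNA ran from 233 through 309 to 353 RPKM, with a mean of 299 ± 32.5, and its RPF from 299 through 360 to 450 RPKM, with a mean of 368 ± 42.3. The lowest Slc12a1 pool lay above the highest Slc12a3 pool in RNA, and just above it in RPF (450.9 against 450.1 RPKM).

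Wnk1 and Cul3 formed the next tier in RNA. Wnk1 RNA ran from 99.1 through 111 to 142 RPKM, with a mean of 113 ± 10.1 RPKM. Cul3 RNA ran from 78.2 through 109 to 146 RPKM, with a mean of 107 ± 16 RPKM. Wnk4 RNA ran from 32.2 through 45.3 to 55.9 RPKM, with a mean of 43.8 ± 6.61 RPKM. The lowest tier held Oxsr1 (25.9 ± 1.92 RPKM), Stk39 (25.4 ± 2.45 RPKM) and Klhl3 (24.8 ± 3.21 RPKM), whose RNA ranges overlapped throughout.

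Neighbours in the order of levels were compared with an exact two-sided sign-flip permutation test over the 12 timepoint means, and p-values were adjusted over 21 such comparisons in RNA, RPF and TE. In RNA, Slc12a1 exceeded Slc12a3 1.70-fold, Slc12a3 exceeded Wnk1 2.65-fold, Cul3 exceeded Wnk4 2.44-fold and Wnk4 exceeded Oxsr1 1.67-fold, each at 12 of 12 timepoints (adjusted p = 0.000932 each, exact permutation, from the smallest p of 0.000488 that 12 timepoints allow). The RNA difference did not pass for Wnk1 and Cul3 (1.06-fold, adjusted exact p = 0.23), Oxsr1 and Stk39 (1.02-fold, adjusted exact p = 0.287) or Stk39 and Klhl3 (1.03-fold, adjusted exact p = 0.552).

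In RPF-seq the order changed at Wnk1. Wnk1 RPF ran from 21.8 through 26.7 to 32.5 RPKM, with a mean of 27.1 ± 2.49 RPKM, and so fell from the third place in RNA to the fifth in RPF. Cul3 RPF had a mean of 68.3 ± 5.63 RPKM and Wnk4 RPF a mean of 37.8 ± 3.25 RPKM, and Wnk4 RPF exceeded Wnk1 RPF 1.40-fold at 12 of 12 timepoints (adjusted exact p = 0.000932). Oxsr1 RPF (24.8 ± 1.77 RPKM) lay 1.09-fold under Wnk1 RPF (adjusted exact p = 0.0212). Stk39 (16.8 ± 1.31 RPKM) and Klhl3 (14.9 ± 1.81 RPKM) closed the order, and Stk39 RPF exceeded Klhl3 RPF 1.13-fold (adjusted exact p = 0.00158). RPKM depends on the counted coding length, which the test over timepoints does not cover. For Klhl3 this length was 1976 nt, beside a longest annotated coding sequence of 1761 nt. For Stk39 both were 1668 nt. A shorter length would raise Klhl3 RPKM in both assays, so its place beside Stk39 and Oxsr1 depends on the counted length.

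TE set Wnk1 apart from the other 7 genes. Wnk1 TE ran from 0.192 through 0.245 to 0.303, with a mean of 0.243 ± 0.0283 (SD, n = 24 pools), and 3.24% of tested genes had a lower mean TE. The median TE over all tested genes was 0.956. The highest Wnk1 pool lay below the lowest pool of each of the other 7 genes, and Klhl3, the next in order (0.610 ± 0.0781), exceeded it 2.51-fold at 12 of 12 timepoints (adjusted exact p = 0.000932). Slc12a3 had the highest TE, at 1.24 ± 0.113, and exceeded Slc12a1 (1.03 ± 0.0793), the second, 1.20-fold at 12 of 12 timepoints (adjusted exact p = 0.000932). Slc12a1 TE in turn exceeded Oxsr1 TE 1.07-fold (adjusted exact p = 0.0103). The difference between Oxsr1 (0.962 ± 0.0960) and Wnk4 (0.881 ± 0.142) did not pass (adjusted exact p = 0.128). Differences between neighbours among Stk39 (0.670 ± 0.0805), Cul3 (0.652 ± 0.116) and Klhl3 did not pass either (adjusted exact p = 0.444 and 0.366). Because TE is a ratio of values per kilobase of the same counted exons, a Wnk1 form that is transcribed but little translated and a uniformly low translation of all forms cannot be told apart.

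**Figure D1:**
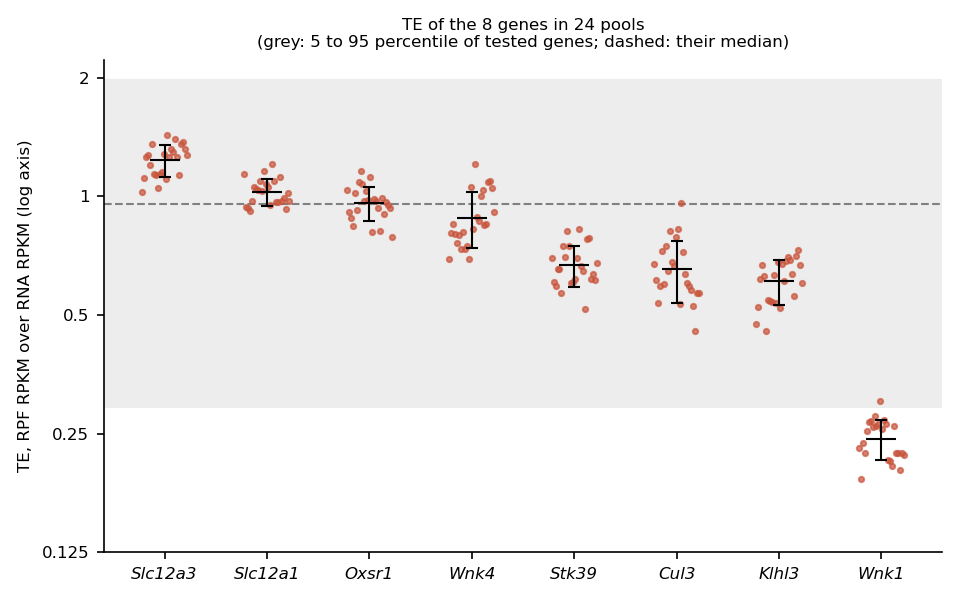
TE of each gene (vertical log axis, RPF RPKM over RNA RPKM) in the 24 pools (points), with the mean and SD over pools in black; the grey band spans the 5 to 95 percentile of the 11863 tested genes (0.292 to 1.97) and the dashed line is their median (0.956). Wnk1 lies under the band on average (0.243), and the other 7 genes lie inside it.

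Variation over the day was then tested by fitting a 24-h cosine to log2(RPKM + 0.1) of each gene with limma, with Benjamini-Hochberg adjustment over all 11863 tested genes. A gene with adjusted p under 0.05 was said to have a 24-h component, and to be rhythmic if its fitted curve also reached a peak-to-trough ratio of 1.5-fold. Of the 8 genes, 0 were rhythmic in RNA, RPF or TE, where 10.2%, 7.58% and 3.74% of tested genes were. Counts without the fold limit were 5 of 8 in RNA, where 48.6% of tested genes had a 24-h component, 3 of 8 in RPF (30.9%) and 2 of 8 in TE (17.1%). The median fitted fold of the 8 genes was 1.18 in RNA, 1.09 in RPF and 1.17 in TE, beside 1.20, 1.18 and 1.19 over all tested genes. Slc12a1, Slc12a3 and Wnk1 had a 24-h component in both RNA and RPF (3 of 8, beside 20.6% of tested genes).

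**Figure D2:**
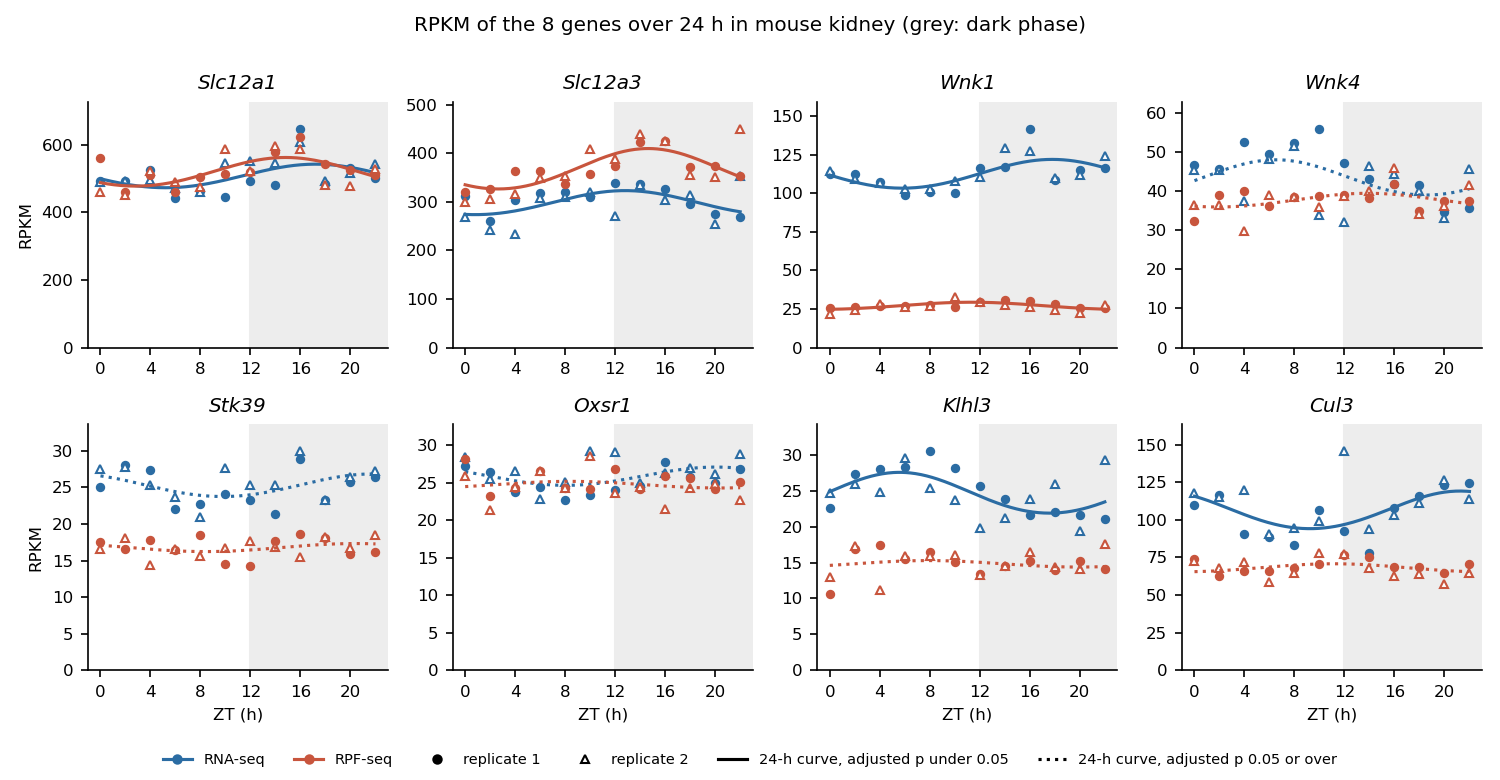
RPKM (vertical axis, from 0) against ZT (horizontal axis, h) for the 8 genes, with RNA-seq in blue, RPF-seq in red, replicate 1 as filled circles and replicate 2 as open triangles; lines are fitted 24-h curves, solid where the adjusted p is under 0.05, and grey marks the dark phase. The curves are shallow (at most 1.27-fold in RNA and 1.25-fold in RPF), and Wnk1 RPF runs far under Wnk1 RNA.

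The cotransporters were highest in RPF early in the dark phase. Slc12a3 RPF averaged 310 RPKM at ZT0 (299 and 321 in the 2 pools), its lowest timepoint mean, and 432 RPKM at ZT14 (424 and 440), its highest. Its fitted fold was 1.25 (log2 0.33 ± 0.069 SE), with a peak at ZT14.6 ± 0.80 h (SE) and an adjusted p of 0.00275 from limma over 24 pools. The call held in 24 of 24 fits that left out 1 pool and in 12 of 12 that left out 1 timepoint. Slc12a1 RPF averaged 455 RPKM at ZT2 (451 and 460), its lowest timepoint mean, and 606 RPKM at ZT16 (588 and 624), its highest. Its fitted fold was 1.18 (log2 0.24 ± 0.062), peaking at ZT14.8 ± 1.01 h (limma, adjusted p = 0.0167). This call was kept in 24 of 24 fits without 1 pool, and lost without ZT2, ZT14 or ZT16 (adjusted p = 0.0766, 0.0771 and 0.0797).

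In RNA both cotransporters passed the threshold narrowly. Slc12a1 RNA averaged 458 RPKM at ZT6 (444 and 473) and 628 RPKM at ZT16 (609 and 647), and the 2 ZT16 pools lay above all 22 others, of which the highest had 552 RPKM. The fitted fold was 1.15 (log2 0.20 ± 0.067) with a peak at ZT17.2 ± 1.29 h (limma, adjusted p = 0.0473), and without ZT16 the adjusted p was 0.27. Slc12a3 RNA averaged 251 RPKM at ZT2 (242 and 260) and 336 RPKM at ZT14 (335 and 337). Its fitted fold was 1.18 (log2 0.24 ± 0.080) with a peak at ZT12.8 ± 1.28 h (limma, adjusted p = 0.0449). Each of these RNA calls was kept in 7 of 24 fits that left out 1 pool, with adjusted p up to 0.123 for Slc12a1 and 0.104 for Slc12a3.

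For both cotransporters the RPF and RNA peaks could not be told apart within their errors. The RPF peak minus the RNA peak was -2.39 ± 1.64 h (SE) for Slc12a1 and 1.84 ± 1.51 h for Slc12a3. These SEs combine the errors of the 2 fits as if independent, though both assays used the same pools. The test of a difference between the assays, the 24-h component of TE, did not pass for either gene (limma, adjusted p = 0.274 and 0.278). The ratio of Slc12a3 to Slc12a1 (geometric mean ± SD over pools) was 0.587 ± 0.0809 in RNA and 0.705 ± 0.0550 in RPF. A 24-h curve in this ratio did not pass a permutation test of timepoint labels (100000 resamples, one-sided, adjusted over 8 ratios) in RNA (1.18-fold, adjusted p = 0.288) or in RPF (1.07-fold, adjusted p = 0.529).

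Markers of the segments that make the cotransporters moved over the day as well. In whole kidney, fewer cells of a type and less RNA per cell cannot be told apart. The 6 thick ascending limb markers (Umod, Cldn16, Cldn19, Cldn10, Ptger3 and Kcnj1) summed to 3451 to 6018 RPKM in RPF, with a 24-h curve of 1.39-fold peaking at ZT16.3, and to 2339 to 3605 RPKM in RNA, with a curve of 1.23-fold peaking at ZT17.4. Umod made up most of these sums, and not all markers peaked with it: Cldn10 peaked at ZT23.9 in RPF (1.40-fold) and ZT23.4 in RNA (1.58-fold). The 6 distal convoluted tubule markers (Pvalb, Trpm6, Calb1, Trpv5, Slc8a1 and Cnnm2) summed to 456 to 808 RPKM in RNA, with a curve of 1.42-fold peaking at ZT23.6. In RPF they summed to 579 to 1147 RPKM, with a curve of 1.26-fold peaking at ZT2.5 (R2 = 0.221). Calb1 made up most of these sums, with means of 369 RPKM in RNA and 680 RPKM in RPF. Its own RPF curve did not pass (limma, adjusted p = 0.103). Of the 6 markers only Slc8a1 passed in RPF (1.51-fold, ZT0.9, limma adjusted p = 0.000258). In RNA, the 2 ZT16 pools that were highest for Slc12a1 ranked 2 and 3 of 24 for the summed thick ascending limb markers and 1 and 2 for 3 listed haemoglobin genes (338 and 296 RPKM against a median of 82.4). The part of these markers in the cotransporter curves was not tested.

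Of the 3 genes with a 24-h component in both assays, Wnk1 had the RNA and RPF peaks that lay farthest apart. Its RNA was lowest at ZT6 (99.1 and 103 RPKM) and highest at ZT16 (127 and 142 RPKM). Its fitted RNA fold was 1.18 (log2 0.24 ± 0.057), with a peak at ZT17.8 ± 0.92 h (limma, adjusted p = 0.00492). Its RPF was lowest at ZT0 (21.8 and 25.7 RPKM) and highest on average at ZT12 (29.8 RPKM in both pools). Its fitted RPF fold was 1.19 (log2 0.25 ± 0.064), with a peak at ZT11.3 ± 0.99 h (limma, adjusted p = 0.0142). The RPF peak minus the RNA peak was -6.45 ± 1.35 h (SE, combined as for the cotransporters). Both calls held in 24 of 24 fits that left out 1 pool, and the RPF call was lost without the timepoint ZT12 (adjusted p = 0.050).

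Wnk1 TE averaged 0.210 at ZT16 (0.207 and 0.213) and 0.211 at ZT0 (0.192 and 0.230), and 0.284 at ZT10 (0.265 and 0.303). The fitted fold was 1.29 (log2 0.36 ± 0.075), with a peak at ZT8.6 ± 0.80 h (limma, adjusted p = 0.00793), and the call held in 24 of 24 fits without 1 pool and 12 of 12 without 1 timepoint. Pools from ZT4 to ZT12 lay between 0.254 and 0.303, and those from ZT16, ZT20, ZT22, ZT0 and ZT2 between 0.192 and 0.236. The pools of ZT14 (0.215 and 0.265) and ZT18 (0.224 and 0.262) straddled both ranges.

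Wnk4, the kinase most closely tied to the distal convoluted tubule, had the more variable RNA of the WNK pair. Its RNA averaged 52.0 RPKM at ZT8 (51.5 and 52.5) and 34.0 RPKM at ZT20 (33.3 and 34.7), but the 2 pools of ZT10 differed as much as that (34.0 and 55.9). The 24-h curve of 1.23-fold with a peak at ZT6.5 ± 1.41 h did not pass (limma, adjusted p = 0.0742), and it passed when replicate 2 of ZT4, ZT10 or ZT12 was left out (adjusted p = 0.0306, 0.0167 and 0.0261). Wnk4 RPF was flatter (1.10-fold, adjusted p = 0.308), and its TE curve of 1.29-fold with a peak at ZT17.2 missed the threshold (limma, adjusted p = 0.0525).

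The ratio of Wnk4 to Wnk1 RNA followed a 24-h curve when all 24 pools were used. It ranged from 0.293 to 0.559 over these pools, and its fitted curve was 1.45-fold with a peak at ZT6.2 (R2 = 0.475, permutation adjusted p = 0.012, 8 ratios, one-sided). Without replicate 1 of every timepoint the curve was 1.29-fold. Wnk1 values do not separate the full-length kinase from its shorter form, so this is a ratio of gene-level values and not of 2 kinases. In RPF the ratio was 1.40 ± 0.160, so that Wnk4 exceeded Wnk1 there, and no 24-h curve passed (1.12-fold, permutation adjusted p = 0.475). Whether the RNA and RPF curves of this ratio differ was not tested.

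SPAK and OSR1, the kinases that join the WNKs to the cotransporters, had no 24-h component that passed in RNA, RPF or TE over all 24 pools. In 1 of 24 fits that left out 1 pool, the fit without replicate 2 of ZT10, Oxsr1 RNA passed. Oxsr1 RNA ran from 22.6 through 26 to 29.2 RPKM and its RPF from 21.4 through 24.4 to 28.5 RPKM. Stk39 RNA ran from 20.9 through 25.4 to 29.9 RPKM and its RPF from 14.3 through 16.8 to 18.6 RPKM. No 24-h component passed for either gene in RNA (1.10-fold, adjusted p = 0.168 for Oxsr1 and 1.13-fold, adjusted p = 0.138 for Stk39, limma), in RPF (1.04-fold, adjusted p = 0.804 and 1.07-fold, adjusted p = 0.532) or in TE (adjusted p = 0.214 and 0.757). The Stk39 to Oxsr1 ratio held no 24-h curve that passed in RNA (1.06-fold, permutation adjusted p = 0.628) or RPF (1.11-fold, permutation adjusted p = 0.475). Between 2 pools of a timepoint, the replicate SD was 0.086 (log2) for Stk39 RNA and 0.11 for Oxsr1 RNA, of which counting error alone gives 0.057 for each.

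Klhl3 and Cul3, which act in the same ligase, had RNA peaks on either side of lights-on. Klhl3 RNA averaged 29.0 RPKM at ZT6 (28.4 and 29.5) and 20.5 RPKM at ZT20 (19.4 and 21.6). Its fitted fold was 1.26 (log2 0.33 ± 0.085), with a peak at ZT5.6 ± 0.98 h (limma, adjusted p = 0.0081), kept in all 24 fits without 1 pool. Cul3 RNA averaged 86.1 RPKM at ZT14 (78.2 and 94.0) against 123 and 126 RPKM in the 2 pools of ZT20, and the 2 pools of ZT12 lay far apart (92.6 and 146). Its fitted fold was 1.27 (log2 0.34 ± 0.10), with a peak at ZT21.2 ± 1.14 h (limma, adjusted p = 0.0233), and it was lost without replicate 1 of ZT8 (adjusted p = 0.0546) and in 4 of 12 fits that left out 1 timepoint. The ratio of Klhl3 to Cul3 RNA ranged from 0.136 to 0.367, with a curve of 1.51-fold peaking at ZT7.4 (R2 = 0.366, permutation adjusted p = 0.0338).

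In RPF neither Klhl3 (10.7 to 17.6 RPKM, 1.06-fold, adjusted p = 0.789) nor Cul3 (57.4 to 78.2 RPKM, 1.08-fold, adjusted p = 0.40) had a 24-h component (limma). The RPF ratio of Klhl3 to Cul3 likewise held no curve that passed (1.06-fold, permutation adjusted p = 0.86). Cul3 TE, in turn, ran from 0.454 through 0.624 to 0.961, with a fitted fold of 1.36 (log2 0.44 ± 0.11) and a peak at ZT9.7 ± 0.98 h (limma, adjusted p = 0.0267). That call was lost without replicate 1 of ZT8 (adjusted p = 0.0534) or without either pool of ZT20 (adjusted p = 0.0507 and 0.0582).

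**Figure D3:**
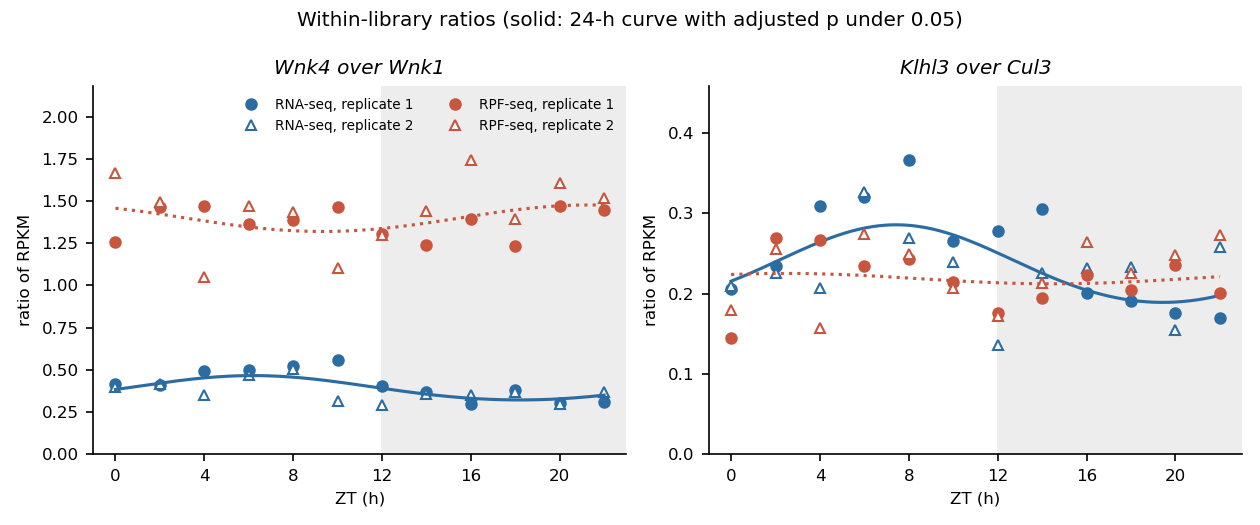
Within-library ratio of RPKM (vertical axis, from 0) against ZT (horizontal axis, h) for Wnk4 over Wnk1 and Klhl3 over Cul3, with RNA-seq in blue, RPF-seq in red and the replicates as circles and triangles; fitted 24-h curves are solid where the adjusted permutation p is under 0.05. Both RNA ratios are higher in the light phase (peaks at ZT6.2 and ZT7.4), and neither RPF ratio has a curve that passed.

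Libraries also differed in a trend over GC content. In each library, the deviation of every gene from its mean over libraries was fitted against the GC content of its longest coding sequence, known for 11787 of the 11863 tested genes. The slope in RNA-seq ran from -0.21 to 0.26 log2 per 10 GC points and itself followed a 24-h curve (R2 = 0.392, peak at ZT8.7). In RPF-seq it ran from -0.15 to 0.15 with almost no 24-h curve (R2 = 0.00644). Cul3 has a coding GC content of 39.9%, where 1.26% of tested genes have a lower one, and Wnk4 one of 59.3%. To show the contrast, the first 60-base stretch within 1 coding exon whose GC content lies within 1 point of that of the whole coding sequence is printed for each gene, from 5′ to 3′ with G and C in capitals. The Cul3 stretch is in exon 2 (GRCm38, chr1:80322971-80323030, minus strand) and holds 24 G or C, and the Wnk4 stretch is in exon 1 (chr11:101260672-101260731, plus strand) and holds 35:
Cul3: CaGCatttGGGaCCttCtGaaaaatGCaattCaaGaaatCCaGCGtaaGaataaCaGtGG
Wnk4: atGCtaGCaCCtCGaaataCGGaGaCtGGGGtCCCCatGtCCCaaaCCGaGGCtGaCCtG

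Across the 24 RNA-seq libraries, Pearson's r between a gene's log2 level and the library's GC slope was -0.95 for Cul3, -0.76 for Oxsr1, -0.60 for Stk39, -0.46 for Slc12a1 and -0.33 for Wnk1, and 0.61 for Slc12a3, 0.65 for Klhl3 and 0.76 for Wnk4. These values describe libraries that share timepoints, so they are given without a test. The genes of negative sign in RNA had coding GC contents of 39.9% to 50.9%, and those of positive sign 56.0% to 59.3%. Over the 24 RPF-seq libraries, r with the RPF-seq slope ran from -0.85 for Cul3 to 0.65 for Klhl3.

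With the GC trend taken out of every library, an alternative chosen after seeing the data, 4 of 8 genes had a 24-h component in RNA, 4 in RPF and 0 in TE (limma), beside 46.5%, 34.3% and 9.9% of the 11787 genes with a known GC content. The RPF curves of Slc12a3 (1.28-fold, ZT15.0, adjusted p = 0.000618), Slc12a1 (1.19-fold, ZT15.2, adjusted p = 0.00693) and Wnk1 (1.17-fold, ZT11.7, adjusted p = 0.0115) kept their peak times within 1 h, and Wnk4 RPF was added (1.12-fold, ZT15.0, adjusted p = 0.0497), but not with a replicate block (adjusted p = 0.0537). RNA peaks of the cotransporters came to ZT15.9 for Slc12a1 (adjusted p = 0.0251) and ZT14.7 for Slc12a3 (adjusted p = 0.00925), nearer to their RPF peaks than before. Wnk1 RNA (1.16-fold, ZT16.6, adjusted p = 0.012) and Klhl3 RNA (1.17-fold, ZT4.1, adjusted p = 0.0314) stayed called. Cul3 RNA did not (1.03-fold, adjusted p = 0.611), nor did Cul3 TE (1.11-fold, adjusted p = 0.196). Wnk1 TE kept its peak at ZT8.3 with 1.20-fold but missed the threshold (adjusted p = 0.0591), and it passed when a trend over coding length was removed too (adjusted p = 0.0197). The Wnk4 to Wnk1 RNA ratio kept its curve (1.29-fold, permutation adjusted p = 0.0106), and the Klhl3 to Cul3 RNA ratio did not (1.15-fold, permutation adjusted p = 0.133).

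**Figure D4:**
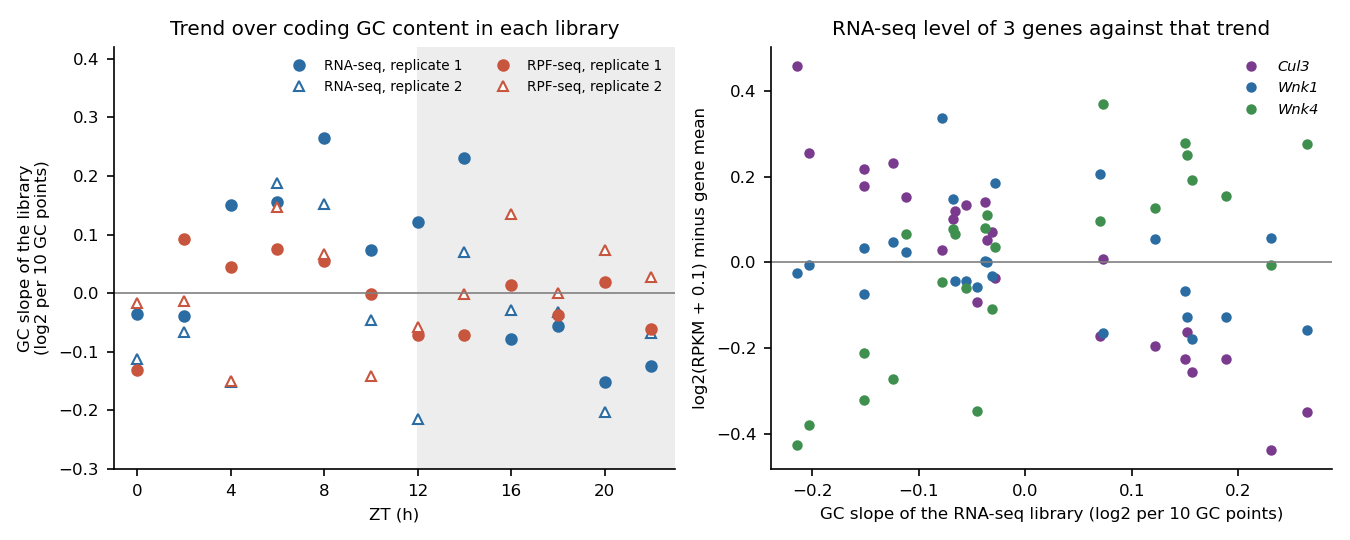
Left, slope of each library's deviations over coding GC content (vertical axis, log2 per 10 GC points) against ZT (horizontal axis, h) for RNA-seq (blue) and RPF-seq (red); right, log2 RNA level minus the gene mean (vertical axis) of Cul3, Wnk1 and Wnk4 against the RNA-seq slope (horizontal axis), 1 point per library. RNA-seq slopes reach 0.26 and fall to -0.21, Cul3 falls along them (r = -0.95), Wnk4 rises (r = 0.76) and Wnk1 shows a weak relation (r = -0.33).

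**Figure D5:**
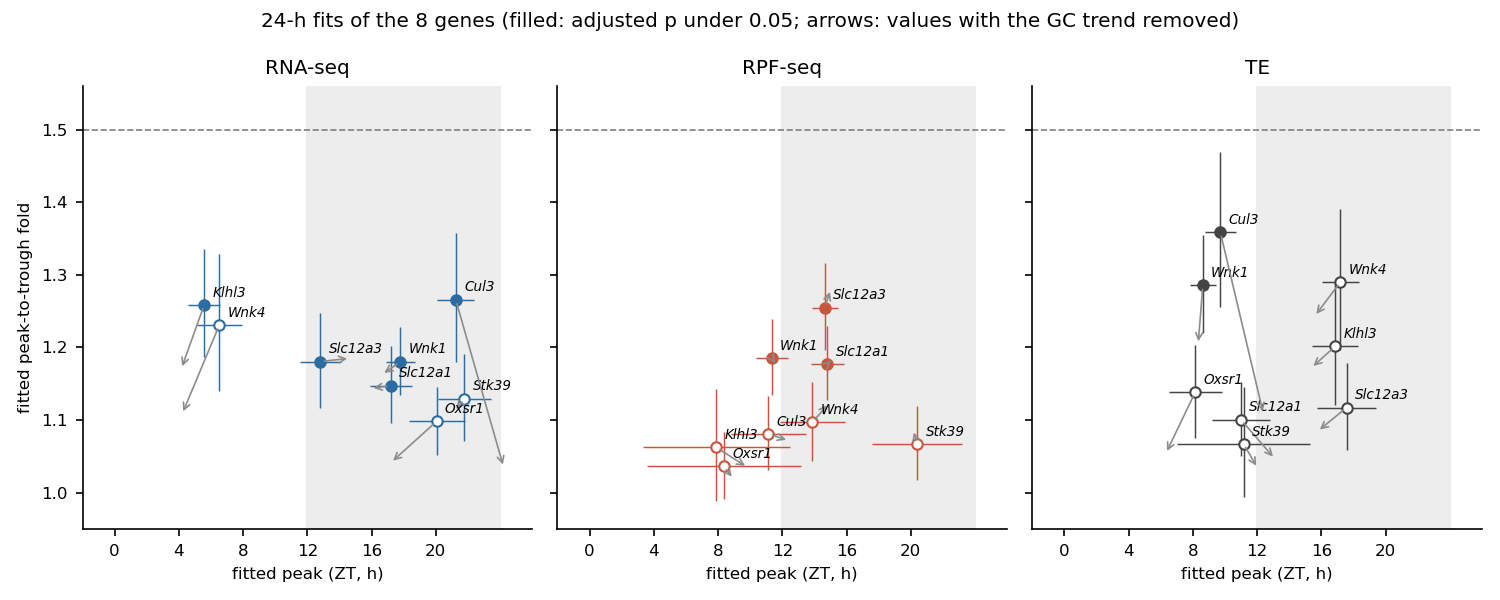
Fitted peak-to-trough fold (vertical axis) against fitted peak time (horizontal axis, ZT in h) with standard errors in RNA-seq, RPF-seq and TE; filled points have an adjusted p under 0.05, the dashed line is the 1.5-fold limit, and each arrow leads to the values with the GC trend removed, and grey marks the dark phase. All 8 genes stay under the limit, the RPF points of Slc12a1, Slc12a3 and Wnk1 hardly move, and Cul3 drops to 1.03-fold in RNA and 1.11-fold in TE.

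Likeness to other genes was measured by Pearson's r of log2 levels over the 24 RNA-seq libraries, with r over the 24 RPF-seq libraries given after it. The genes most like Cul3 were Wapl, Erbin and Cul4b (r = 0.95 each in RNA, and 0.57, 0.73 and 0.62 in RPF), with coding GC contents of 40.9% to 41.4%. Those most like Wnk4 were Ltbp3, Atn1 and Tnrc18 (r = 0.91 each in RNA, and 0.81, 0.08 and 0.01 in RPF), with GC contents of 62.2% each. The genes most like these 2 members thus had GC contents near their own. Wnk1 was among the 3 genes most like Slc12a1 (r = 0.83 in RNA and 0.64 in RPF), after Entpd1 (0.90 and 0.59) and Man2a1 (0.83 and 0.66). Slc12a3 was most like Rapgef1 (0.86 and 0.17), Sh2b3 (0.83 and 0.26) and Crat (0.82 and 0.39). Besides Slc12a1, Wnk1 was most like Klf6 (0.88 and 0.19) and Ackr3 (0.84 and -0.15). The like genes were picked for their r in RNA, so nothing is read from a lower r in RPF. Stk39 was most like Plekha1 (0.82 and 0.15), Bmpr1a (0.81 and -0.26) and Atp1b3 (0.80 and 0.21). Oxsr1 was most like Zmym2 (0.85 and 0.48), Nup153 (0.84 and 0.09) and Slf2 (0.84 and 0.30). Klhl3 was most like Sema3g (0.89 and 0.78), Dip2a (0.84 and 0.37) and H6pd (0.83 and 0.46). Among the 8 genes themselves, Slc12a1 and Slc12a3 had the highest r in RPF (0.73, and 0.09 in RNA), over the same 24 pools. Wnk4 and Klhl3 came next in RPF (0.67, and 0.75 in RNA). Both went with the library GC slope in RNA (r = 0.76 for Wnk4 and 0.65 for Klhl3) and in RPF (0.62 and 0.65). The part of that slope in the r between Wnk4 and Klhl3 was not tested. RNA levels of Slc12a1 and Slc12a3 went with the library GC slope in opposite directions (r = -0.46 and 0.61). The part of that slope in their RNA r was not tested.

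Promoter windows of 300 bases around the RefSeq start (GRCm38.p6) were found for all 8 genes. None of the 8 held CACGTG, the E-box bound by clock activators, which 7.15% of 32851 promoters held on either strand, and none held TTANNTAA, a D-box core, which 6.00% held. This says only that these letters are not in these windows.

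Genes around the pathway were taken as 4 lists of 45 genes in all, of which 41 were tested. Among other SLC12 transporters and WNK kinases, 5 of 9 were tested, and 4 had a 24-h component in RNA, 3 in RPF and 1 in TE. Over all tested genes the shares were 48.6%, 30.9% and 17.1%, against which the counts of each list are to be read. The median fitted RNA fold of these 5 was 1.40, beside 1.20 over all tested genes. Slc12a7, the potassium-chloride cotransporter KCC4 and the most abundant of this list, was rhythmic in RNA (1.58-fold, ZT7.9, limma adjusted p = 4.56e-07) but had no RPF component that passed (1.15-fold, adjusted p = 0.0563). Its TE ran from 1.46 through 1.72 to 2.42 and followed a curve of 1.40-fold peaking at ZT19.1 (limma, adjusted p = 0.00481). With the GC trend removed, Slc12a7 RNA was 1.45-fold and its TE still passed (adjusted p = 0.0259).

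Among 13 kinase adaptors and upstream regulators, 8 had a 24-h component in RNA, 5 in RPF and 4 in TE, beside 48.6%, 30.9% and 17.1% of all tested genes. Sgk1, an aldosterone-induced kinase that acts on salt channels and transporters, had the largest fitted RNA fold of the 4 lists. Its RNA ran from 29.5 through 53.4 to 117 RPKM, with a curve of 2.64-fold peaking at ZT16 ± 0.40 h, and its RPF curve was 2.43-fold peaking at ZT15.7 ± 0.45 h (limma, adjusted p = 2.95e-07 and 3.45e-06). Hsd11b2, the enzyme that inactivates glucocorticoids in aldosterone target cells, had RNA from 41.3 through 70.2 to 105 RPKM with a curve of 1.77-fold peaking at ZT5.1, and an RPF curve of 1.19-fold peaking at ZT18.5 (limma, adjusted p = 0.000819 and 0.0284). Hsd11b2 TE ran from 1.80 through 3.06 to 5.14, with a curve of 2.08-fold peaking at ZT17.4 (limma, adjusted p = 0.00138), and with the GC trend removed of 1.96-fold (adjusted p = 0.00195). The most abundant RNA of this list was Ppp1r1a (147 ± 22.5 RPKM), an inhibitor of protein phosphatase 1, with a curve of 1.33-fold peaking at ZT14.4 (limma, adjusted p = 0.0019).

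Of 12 ubiquitin ligase partners, 8 had a 24-h component in RNA (48.6% of all tested genes), 1 in RPF (30.9%) and 3 in TE (17.1%), and 0 were rhythmic in any (10.2%, 7.58% and 3.74%). Nedd8, the ubiquitin-like protein that activates cullins, was the most abundant (215 ± 35.7 RPKM in RNA), and its RNA curve did not pass (1.19-fold, limma adjusted p = 0.197). Of 11 salt transport partners, 8 had a 24-h component in RNA, 8 in RPF and 5 in TE, and 0 were rhythmic, beside the same shares of all tested genes. Fxyd2, the sodium pump regulator, was the most abundant (3309 ± 355 RPKM in RNA), with an RNA curve of 1.22-fold peaking at ZT16.6 (limma, adjusted p = 0.0121).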

How the data were processed

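The 8 genes and the lists around them were chosen with earlier results of these data known. Per the labels and the methods of the study, the authors trimmed reads with cutadapt, mapped them in turn to ribosomal RNA, transfer RNA and mouse cDNA with Bowtie2 2.2.1 and then to GRCm38.p2 with TopHat2 2.0.11, counted the transcriptome-mapped reads that fell on coding sequences, applied upper quantile normalisation with edgeR and deposited RPKM values. The RPKM cutoff used and the strand setting of the counting are not given in the sources used here. The pools came from a pair of daily cycles, and the labels do not say which cycle a replicate number stands for. Whole reads were recovered from the steps between low RPKM values (tolerance 0.05 reads, with at least 98.35% of values under 500 reads whole), so the depths given are relative and counting errors follow from these reads. These counting errors cover the sampling of reads only.

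Values were tested as log2(RPKM + 0.1) in 11863 genes with a median of at least 0.5 RPKM in both assays, so fold changes of low genes are understated. A 24-h cosine and sine were fitted with limma 3.58.1 in R 4.3.3, and the F test was adjusted by Benjamini-Hochberg. TE was the within-pool difference of log2 values. Levels of neighbouring genes were compared by exact sign-flip permutation tests, and ratios of gene pairs by permutation of values (100000 resamples) (Python 3.11.15, scipy 1.17.1). The limma fit was checked on simulated RNA values, and the permutation tests were not checked in this way. Named genes outside the 8 were every gene of the lists that was rhythmic in RNA, RPF or TE, the most abundant RNA of each list, and for likeness the 3 genes with the highest Pearson's r in RNA. A result that this rule names is not reported here. Replicates are separate pools of animals. Alternatives were other pseudocounts, filters, thresholds and models, a replicate block, leaving out pools, and, added after the data were seen, removal of trends over GC content and coding length.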

Additional observations from a re-analysis of the deposited data

Results flagged for a closer look

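The 24-h component of TE tests whether the RPF and RNA curves of a gene differ, and it passed for 2 of the 8 genes (limma, Benjamini-Hochberg adjusted over 11863 genes). These were Wnk1 (1.29-fold, adjusted p = 0.00793) and Cul3 (1.36-fold, adjusted p = 0.0267). Of the list genes whose TE is given above, it passed for Slc12a7 (1.40-fold, adjusted p = 0.00481) and Hsd11b2 (2.08-fold, adjusted p = 0.00138). With the GC trend removed, the adjusted p was 0.0591 for Wnk1, 0.196 for Cul3, 0.0259 for Slc12a7 and 0.00195 for Hsd11b2. The part of the GC trend in the TE curves was not tested further.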

How the results depend on the processing

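With 8 genes and 24 pools, small curves sit near the threshold, and no result past its threshold reversed direction under the alternatives run. As deposited, 5, 3 and 2 of the 8 genes had a 24-h component in RNA, RPF and TE. At an FDR of 0.01 there were 2, 1 and 1 (of 3753, 2033 and 560 genes in all, with 215 past the fold limit in TE). With timepoint as a factor there were 2, 1 and 0 (of 3674, 1520 and 101 genes, with 2291 in RNA and 98 in TE past the fold limit). Choice by AIC gave 8, 3 and 7 (of 8405, 7090 and 6354 genes, with 727 in TE past the fold limit), and adding a 12-h harmonic gave 3 in RNA and 1 in TE. A pseudocount of 1 left 781 genes in RNA and 590 in RPF past the fold limit. Removing the GC trend left 0 of the 8 genes in TE (1167 genes, 278 past the fold limit), as it did with a replicate block (1200 and 283), and removing trends over GC content and coding length left 1 (1187 and 272). The cause was not tested.

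The RPF minus RNA peak time became -0.653 h for Slc12a1, 0.306 h for Slc12a3 and -4.86 h for Wnk1 with the GC trend removed, and 3.8 h for Slc12a3 and -2.4 h for Wnk1 with the harmonic. The Klhl3 to Cul3 RNA ratio fell to 1.15-fold with the GC trend removed. Differences between replicates correlated by 0.029 on average between timepoints in RNA. Single pairs of timepoints ran from -0.18 to 0.48, and 13 of 66 were above 0.1. The average cannot show whether some timepoints share a replicate structure. The replicate block gave 5783, 3683 and 2161 genes with a 24-h component in RNA, RPF and TE, and 5, 3 and 3 of the 8, with Wnk4 TE added (limma, adjusted p = 0.0455).

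Leaving out 1 pool, 1 timepoint or 1 replicate of every timepoint gave 1200 to 6294 genes in RNA, 460 to 3765 in RPF and 0 to 2299 in TE, with 722 to 1430, 370 to 1004 and 0 to 559 past the fold limit, and 0 to 6, 0 to 3 and 0 to 3 of the 8 genes. The lowest values came from 1 replicate per timepoint: in TE, limma then called 0 genes without replicate 1 (1858 at an unadjusted p under 0.05) and 2 without replicate 2. For the rest, only the fits without replicate 1 or without replicate 2 of every timepoint were run. Peak differences there ran from 0.264 to 3.41 h for Slc12a3 and from -7.50 to -4.54 h for Wnk1. The Wnk4 to Wnk1 RNA ratio ran from 1.29-fold (without replicate 1, permutation adjusted p = 0.561) to 1.69-fold, and the Klhl3 to Cul3 RNA ratio from 1.26-fold (without replicate 1, permutation adjusted p = 0.846) to 1.91-fold. In log2 and over the same pair of fits, Wnk1 over Oxsr1 in RPF ran from 0.12 to 0.13, Slc12a1 over Oxsr1 in TE from 0.072 to 0.12, and Oxsr1 over Wnk4 in TE from 0.013 to 0.26. The verdicts on these 3 differences were not stable. Wnk1 over Oxsr1 in RPF no longer passed without replicate 1, nor did Slc12a1 over Oxsr1 in TE without replicate 2. Oxsr1 over Wnk4 in TE passed without replicate 2. Depth limits Klhl3, Stk39 and Oxsr1 most, where counting error is the largest share of the spread.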
